A study of Mus musculus with 30 samples.

Results

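The 10 genes described here carry the MHC class I presentation pathway: H2-K1, H2-D1, B2m, Tap1, Tap2, Tapbp, Psmb8, Psmb9, Psmb10 and Nlrc5. They were taken by gene symbol, and all 10 were found among the 14475 genes of the deposited table. RNA was sequenced from pieces of ascending and descending colon of female mice, in 30 libraries. The mutants (TM-DKOAsc, of the cross C1galt1f/f;VillinCre-ERT2;C3GnT-/-) lacked C3GnT, the enzyme of core 3 O-glycans (gene B3gnt6), and had floxed C1galt1, the enzyme of core 1 O-glycans, with a tamoxifen-inducible Cre driven by the Villin promoter, which is active in the gut epithelium. The controls were littermates, described as WT in the protocol. Mutants and littermates alike received daily intraperitoneal tamoxifen, 0.5 mg or about 20 mg/kg, on 5 days, and the interval to analysis was 5 or 10 days, not given per library. Each region had 8 mutant and 7 control libraries from 3 cages that shared the same microbiota. Cage A had 3 mutants and 2 controls, cage B had 2 and 3, and cage C had 3 and 2. Cage A was labelled 'C57BL/6 Background' and its mice were 3.4 months old, whereas cages B and C were labelled 'Mixed BL/6-129SvJ', with ages of 2.6 and 3.2 months. The protocol gives a mixed C57BL/6J and 129/SvImJ background for all mutants and littermates. Each cage had a single age, so cage and age cannot be told apart in any of the 3 cages. For cage A the strain label cannot be told apart from them either. The labels do not say whether libraries of both regions came from the same animals, so p-values measure the spread between these libraries. Libraries are named below by region, genotype, cage and number (ascending control B1).

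MHC class I molecules sit on nearly all nucleated cells and display short peptides cut from proteins made inside the cell, which CD8 T cells inspect. H2-K1 and H2-D1 encode the classical heavy chains, and B2m the light chain that every class I heavy chain needs to fold. The immunoproteasome subunits Psmb8, Psmb9 and Psmb10 replace the constitutive catalytic subunits Psmb5, Psmb6 and Psmb7 and alter the peptides produced. Tap1 and Tap2 form the pump that carries peptides into the endoplasmic reticulum, and Tapbp encodes tapasin, which holds the empty heavy chain beside that pump. Nlrc5 is the transactivator of class I genes, which binds promoters through the RFX, CREB/ATF and NF-Y factors, and interferon-gamma induces the whole set in part through Irf1.

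Values are FPKM as the authors deposited them, in which read counts are scaled to gene length and to the reads mapped in a library, and levels of different genes are therefore compared per length. Differences are on the log2(FPKM + 1) scale, in which those of low genes such as Nlrc5 are understated. Depth is not given; estimated from the steps between low values it was 1.46 to 7.70 M reads in ascending mutants, 3.38 to 6.48 M in ascending controls, 6.61 to 9.12 M in descending mutants and 3.07 to 8.96 M in descending controls. C1galt1 averaged 26.7 ± 6.64 FPKM in ascending mutants and 35.3 ± 9.44 in ascending controls (SD, n = 8 and 7), and 28.2 ± 7.15 in descending mutants and 32.9 ± 3.47 in descending controls. B3gnt6 was 0 to 0.53 FPKM in ascending mutants and 0.11 to 19.52 in ascending controls, with a control median of 0.45. It was 0 to 0.06 in descending mutants and 0 to 0.43 in descending controls, so it tests the labels of few controls. The summed FPKM of 6 posterior Hox genes stood apart in 4 libraries, ascending control B1 (32.1), ascending control C1 (10.9), ascending mutant C3 (8.29) and descending control A2 (66.02). The other ascending libraries were at or below 1.77 and the other descending ones between 336 and 494. The tests, ratios and correlations of the 10 genes were also computed without these 4 libraries, a choice made after seeing the data. Within mutants that leaves out ascending mutant C3 alone, and within the descending colon descending control A2 alone.

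Of the 10 genes, 7 lie on chromosome 17 of GRCm38 (positions from the GENCODE M21 annotation), in the major histocompatibility complex. Tapbp is at chr17:33915899-33929292 on the plus strand, H2-K1 at chr17:33996017-34000347 on the minus strand and H2-D1 at chr17:35262730-35267499 on the plus strand. Between them, Psmb9, Tap1, Psmb8 and Tap2 follow each other within 34335 bp (chr17:34181987-34216321), Psmb9 on the minus strand and the others on the plus strand. B2m is at chr2:122147686-122153083, Psmb10 at chr8:105935735-105938444 and Nlrc5 at chr8:94434356-94527272. Tap1 and Psmb9 share 212 nt of exons on opposite strands, 3.87% of the exon length of Tap1 and 5.79% of that of Psmb9, and whether reads were counted by strand is not stated. Of all 50-nt stretches of H2-D1 transcripts 13.9% also occur in another gene, chiefly H2-Q1 and H2-K1, and of H2-K1 transcripts 6.87%, so values of both heavy chains are uncertain to that extent. The share was 3.5% for Tapbp, 0.834% for Tap1, 0.708% for Tap2 and 0 for the other 5 genes.

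The promoters of both heavy chains, of the light chain and of Tap1 are shown because they share short motifs. These genes were called higher in the ascending colon, and so were Psmb8, Psmb10 and Tapbp, whose windows held few or none of the motifs. Windows run from 250 bases before to 50 bases after the RefSeq start on GRCm38.p6, at chr17:34000298-34000597 (minus strand) for H2-K1, chr17:35262844-35263143 (plus) for H2-D1, chr2:122147437-122147736 (plus) for B2m and chr17:34187306-34187605 (plus) for Tap1. Sequences are RefSeq, printed 5′ to 3′ on the gene's strand, and capitals mark matches on either strand to AANNGAAA (the core that interferon regulatory factors recognise), the NF-kappaB palindrome (GGG and CCC with any 5 bases between them), TGACG (CREB and ATF factors, as in the X2 box) or CCAAT (NF-Y, as in the Y box).
H2-K1: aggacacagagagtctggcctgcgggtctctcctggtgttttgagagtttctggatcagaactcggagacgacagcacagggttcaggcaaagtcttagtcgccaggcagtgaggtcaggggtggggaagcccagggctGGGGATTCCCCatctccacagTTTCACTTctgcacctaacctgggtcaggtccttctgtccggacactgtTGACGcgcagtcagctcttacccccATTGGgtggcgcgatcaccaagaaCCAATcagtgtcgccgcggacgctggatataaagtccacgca
H2-D1: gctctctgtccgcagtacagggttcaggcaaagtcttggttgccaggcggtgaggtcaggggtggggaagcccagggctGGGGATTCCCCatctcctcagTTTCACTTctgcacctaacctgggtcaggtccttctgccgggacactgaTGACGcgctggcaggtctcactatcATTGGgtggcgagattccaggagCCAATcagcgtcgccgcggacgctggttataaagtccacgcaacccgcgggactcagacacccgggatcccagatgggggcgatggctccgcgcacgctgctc
B2m: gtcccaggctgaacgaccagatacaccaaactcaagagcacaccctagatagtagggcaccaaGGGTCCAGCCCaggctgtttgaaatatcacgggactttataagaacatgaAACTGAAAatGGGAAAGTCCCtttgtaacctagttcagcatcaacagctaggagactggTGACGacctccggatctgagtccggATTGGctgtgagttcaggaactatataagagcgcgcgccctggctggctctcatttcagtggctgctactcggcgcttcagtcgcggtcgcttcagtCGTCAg
Tap1: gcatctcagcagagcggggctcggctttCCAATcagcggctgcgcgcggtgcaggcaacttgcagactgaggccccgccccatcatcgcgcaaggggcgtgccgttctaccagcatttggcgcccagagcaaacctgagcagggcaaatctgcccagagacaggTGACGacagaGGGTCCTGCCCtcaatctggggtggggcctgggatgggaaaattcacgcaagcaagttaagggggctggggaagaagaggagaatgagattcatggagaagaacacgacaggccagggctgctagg
All 4 motifs were found in H2-D1, H2-K1 and B2m. In H2-D1 their first bases lay at -171 (NF-kappaB), -150 (AANNGAAA), -101 (TGACG) and -76 and -53 (CCAAT), counted from the start. Tap1 held TGACG at -86, the NF-kappaB palindrome at -76 and CCAAT at -222, and no match to AANNGAAA. Promoters were matched for 8 of the 10 genes, all but Tap2 and Nlrc5. Those of Psmb8 and Psmb10 held none of the 4 motifs, that of Tapbp held CCAAT alone, and that of Psmb9 all but AANNGAAA. The windows of Tapbp (chr17:33919228-33919527) and Psmb8 (chr17:34197945-34198244) lie inside the genes as annotated in GENCODE M21, as does that of H2-D1. Sequence before the annotated starts of these genes was not searched. AANNGAAA was present in 3 of the 8 windows and in 23.9% of all 32851 promoter windows of the same length. The NF-kappaB palindrome was present in 5 of 8 against 14% of all windows, TGACG in 5 of 8 against 20.8%, and CCAAT in 6 of 8 against 37.4%. The windows of Tap1 and Psmb9 overlap by 275 bases and are not independent. Those of H2-K1 and H2-D1 are nearly alike over the stretch that holds their motifs. The counts over 8 windows therefore rest on fewer separate sequences. A match is a run of letters and was not tested as a binding site, and no link of the motifs to the regional difference was tested.

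By group mean B2m was the most abundant of the 10 transcripts per length and Nlrc5 the least. B2m averaged 1058 ± 206.7 FPKM in ascending mutants, 1443 ± 442 in ascending controls, 293 ± 127 in descending mutants and 378 ± 169 in descending controls (SD, n = 8, 7, 8 and 7, as for all means of these groups). The heavy chains came next, with H2-K1 at 353 ± 54.3, 452 ± 102, 226 ± 78.0 and 249 ± 84.1 FPKM in the same groups. H2-D1 was close to H2-K1, at 344 ± 48.3, 382 ± 86.8, 182 ± 62.6 and 198 ± 60.9. Tapbp and the immunoproteasome subunit Psmb10 were of intermediate level, with means of 86.5 to 135 and 32.4 to 61.3 FPKM over the 4 groups. Psmb8 (16.4 to 32.0), Tap2 (15.5 to 21.2), Tap1 (7.17 to 16.9) and Psmb9 (4.49 to 9.04) were lower. Nlrc5 averaged 3.73 ± 1.95 FPKM in ascending mutants, 6.39 ± 2.10 in ascending controls, 1.09 ± 0.878 in descending mutants and 1.97 ± 2.33 in descending controls. For 9 of the 10 genes the group means fell in the same order, ascending controls highest, then ascending mutants, descending controls and descending mutants. Psmb10 was the exception, with ascending mutants above ascending controls. The share of all genes with this order was not computed. By fitted log2 difference, mutants were lower than controls for 61.3% of all genes in the ascending and 62.2% in the descending colon. The ascending colon was higher for 34.2% of all genes in mutants and 34.7% in controls. The ranges of mutants and controls of the same region overlapped for all 10 genes, so those neighbours in the order were not separated. In bulk pieces of colon, fewer cells of a type and less RNA per cell cannot be told apart.

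**Figure D1:**
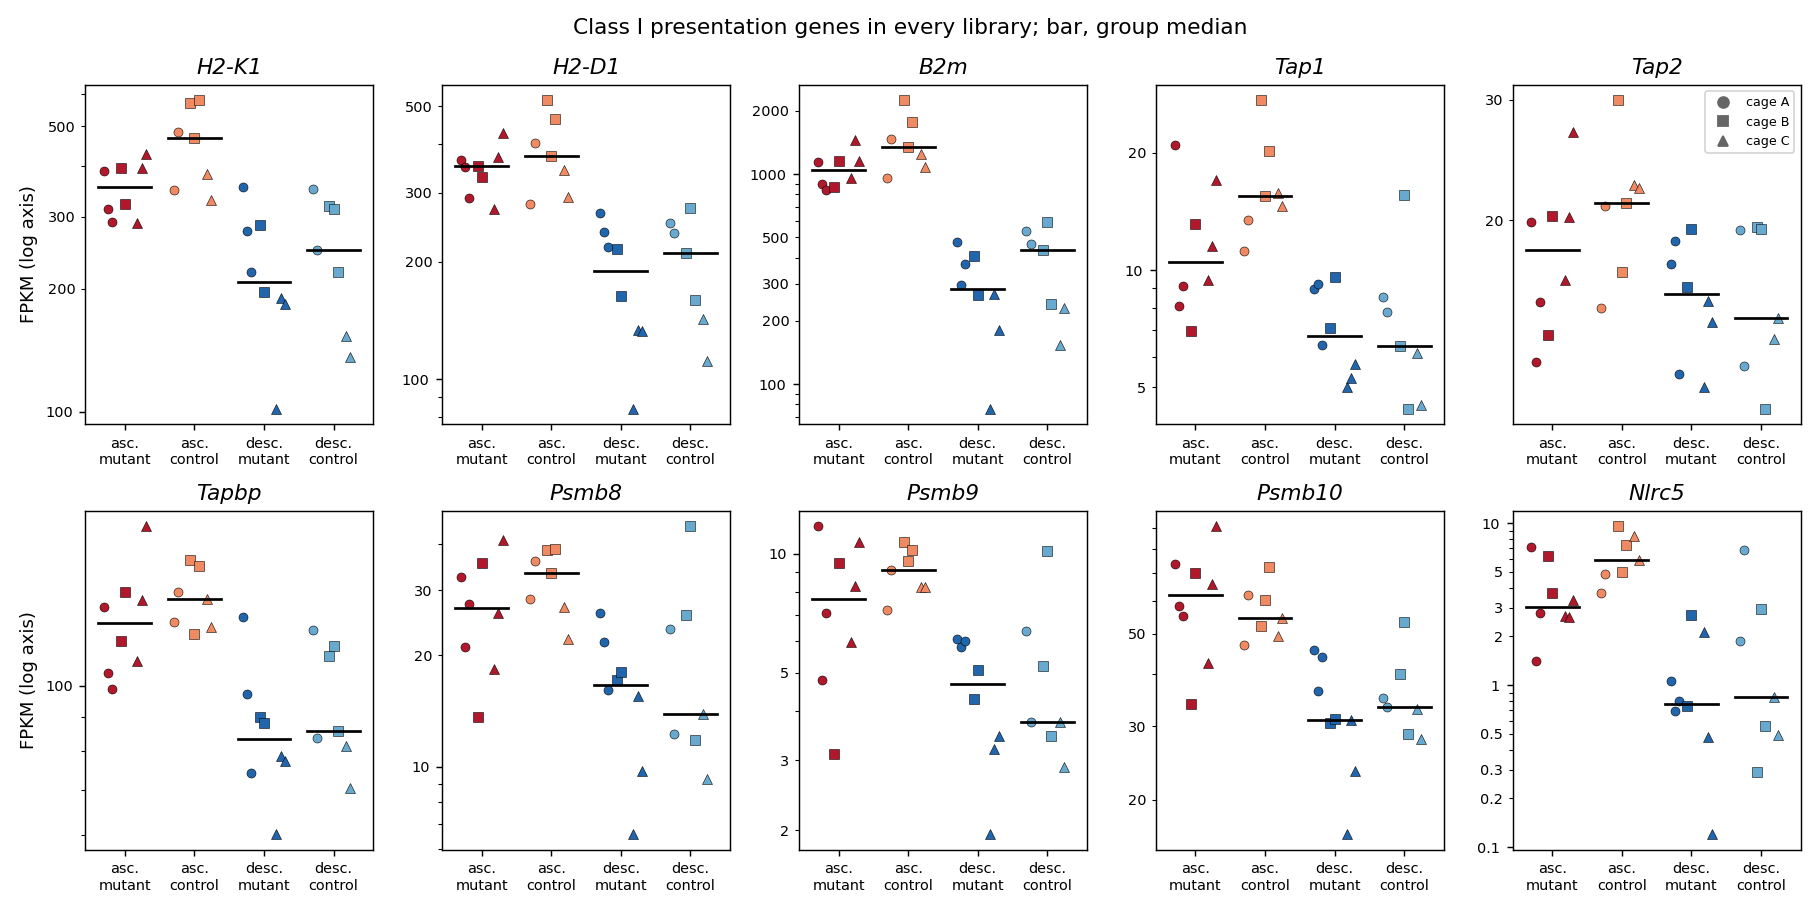
FPKM of the 10 genes in each of the 30 libraries (points, log axis), by region and genotype; horizontal bars are group medians. B2m reaches 2243 FPKM in an ascending control, whereas Nlrc5 lies between 0.12 and 9.59 FPKM.

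Ascending and descending colon were compared within the mutants (8 against 8 libraries) and within the controls (7 against 7), with cage as a covariate. In each genotype 9 of the 10 genes were higher in the ascending colon. The share of all genes called higher was 14.3% of 12203 tested in mutants and 12.8% of 12515 in controls. Called means a limma adjusted p (Benjamini-Hochberg over all genes tested) under 0.05. All 10 lay above 0 in each genotype, as did 34.2% of all genes in mutants and 34.7% in controls. The median log2 difference of the 10 genes was 0.71 in mutants and 0.85 in controls, whereas that of all genes was -0.16 and -0.14. Tap2 was the gene not called in either genotype. Samples were clearest apart for B2m and H2-D1, whose ascending and descending ranges did not overlap in mutants or in controls. That held for 2 of 10 genes in each genotype, where 5.62% of all genes in mutants and 3.83% in controls had ascending ranges wholly above descending ones.

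The light chain had the largest difference of the 10. In mutants, B2m had a lowest, median and highest value of 838, 1050.4 and 1449 FPKM in the ascending colon and 76.4, 282 and 474 in the descending colon. In controls it had 953, 1351 and 2243 FPKM in the ascending colon and 154, 436 and 588 in the descending colon. Every ascending library was above every descending library of its genotype. The log2 difference was 2.0 ± 0.28 in mutants (SE; 3.99-fold; limma adjusted p = 2.95e-05) and 2.02 ± 0.26 in controls (4.06-fold; adjusted p = 5.92e-05). Without the 4 libraries with deviating posterior markers it was 1.92 and 1.89, and over the 10 genes 7 were then called in mutants and 8 in controls.

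H2-D1, a classical heavy chain, was 273 to 427 FPKM in ascending mutants (median 351) and 84.2 to 267 in descending mutants (median 189.6). In controls it was 281 to 517 in the ascending colon (median 374) and 111 to 274 in the descending colon (median 210.3). These ranges did not overlap either, and the log2 differences were 0.99 ± 0.18 in mutants (adjusted p = 0.000377) and 0.98 ± 0.18 in controls (adjusted p = 0.00075). H2-K1, the other classical heavy chain, was 290.3 to 428 FPKM in ascending mutants (median 356) and 102 to 356 in descending mutants (median 208). In controls it was 330.3 to 579 in the ascending colon (median 468) and 136 to 352 in the descending colon (median 249). The highest descending libraries reached into the ascending ranges, and the log2 differences were 0.71 ± 0.20 in mutants (adjusted p = 0.00831) and 0.91 ± 0.17 in controls (adjusted p = 0.000929).

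Among the transport and loading genes, Tap1 and Tapbp were higher in the ascending colon and Tap2 was not called. Tap1, a chain of the peptide pump, was 6.98 to 21.0 FPKM in ascending mutants (median 10.5) and 5.02 to 9.60 in descending mutants (median 6.78), and 11.2 to 27.3 in ascending controls (median 15.5) and 4.41 to 15.6 in descending controls (median 6.38). The ranges overlapped, and the log2 differences were 0.63 ± 0.20 in mutants (adjusted p = 0.0183) and 1.10 ± 0.23 in controls (adjusted p = 0.00196). Tapbp, which encodes tapasin, was 98.9 to 173 FPKM in ascending mutants (median 124) and 60.2 to 127 in descending mutants (median 83.3). In controls it was 119.5 to 154 in the ascending colon (median 135) and 70.5 to 121 in the descending colon (median 85.7). The highest descending libraries reached the lowest ascending ones, and the log2 differences were 0.54 ± 0.15 (adjusted p = 0.00828) in mutants and 0.51 ± 0.12 (adjusted p = 0.00501) in controls. Tap2, the partner of Tap1 in the pump, was 12.4 to 26.9 FPKM in ascending mutants (median 18.1) and 11.4 to 19.4 in descending mutants (median 15.6), and 14.9 to 29.9 in ascending controls (median 21.2) and 10.6 to 19.6 in descending controls (median 14.4). Its log2 difference was 0.20 in mutants (95% interval -0.13 to 0.52, adjusted p = 0.316) and 0.43 in controls (0.07 to 0.79, adjusted p = 0.0596). In controls Tap2 was called with median-of-ratios scaling (0.58, adjusted p = 0.036) and with quantile normalization (0.51, adjusted p = 0.038).

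All 3 immunoproteasome subunits were higher in the ascending colon. Psmb10 was 34.0 to 90.7 FPKM in ascending mutants (median 62.1) and 16.5 to 45.8 in descending mutants (median 31.1), and 47.0 to 72.4 in ascending controls (median 54.7) and 28.0 to 53.5 in descending controls (median 33.4). The ranges overlapped at their edges, and the log2 differences were 0.90 ± 0.20 in mutants (adjusted p = 0.00157) and 0.66 ± 0.13 in controls (adjusted p = 0.00145). Psmb8 was 13.6 to 41.1 FPKM in ascending mutants (median 26.8) and 6.56 to 26.0 in descending mutants (median 16.6), and 22.1 to 38.8 in ascending controls (median 33.4) and 9.25 to 44.7 in descending controls (median 13.9). Its highest control value was a descending library, and the log2 differences were 0.71 ± 0.24 in mutants (adjusted p = 0.0249) and 0.80 ± 0.23 in controls (adjusted p = 0.0162). Psmb9 was 3.12 to 11.7 FPKM in ascending mutants (median 7.695) and 1.95 to 6.09 in descending mutants (median 4.685), and 7.21 to 10.7 in ascending controls (median 9.11) and 2.89 to 10.1 in descending controls (median 3.75). The ranges overlapped again, and the log2 differences were 0.63 ± 0.22 (adjusted p = 0.0324) in mutants and 0.80 ± 0.18 (adjusted p = 0.00342) in controls. Without the 4 libraries that stood apart, Psmb8 was not called in mutants (adjusted p = 0.0515) or in controls (0.0924), nor Psmb9 in mutants (0.0707). With array quality weights Psmb8 was not called in controls (0.0745). Ascending mutant C3 is the only mutant among those 4, so in mutants leaving it out alone is the same fit. In mutants the call of Psmb8 ended on leaving out descending mutant C3 or ascending mutant B2, C2 or C3 (adjusted p = 0.0502 to 0.0546). That of Psmb9 ended on leaving out any of these, descending mutant C1 or C2, or ascending mutant A1 (0.0541 to 0.0707).

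Nlrc5, the transactivator, was 1.4 to 7.12 FPKM in ascending mutants (median 3.055) and 0.12 to 2.72 in descending mutants (median 0.77). In controls it was 3.71 to 9.59 in the ascending colon (median 5.92) and 0.29 to 6.79 in the descending colon (median 0.85). The 3 highest libraries were ascending controls, B1, C1 and B3, and the ranges of the regions overlapped in both genotypes. The highest descending value, 6.79, was that of descending control A2, and both it and ascending controls B1 and C1 are among the 4 libraries set apart by their posterior markers. The log2 difference was 1.18 ± 0.25 in mutants (2.26-fold; adjusted p = 0.00105) and 1.56 ± 0.36 in controls (2.94-fold; adjusted p = 0.00396). Without the 4 libraries it was 1.15 in mutants and 1.63 in controls (adjusted p = 0.00268 and 0.00116). Over all genes the difference of Nlrc5 lay at the 96.4th percentile in mutants and the 97.8th in controls, and that of B2m at the 98.6th and 98.7th.

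**Figure D2:**
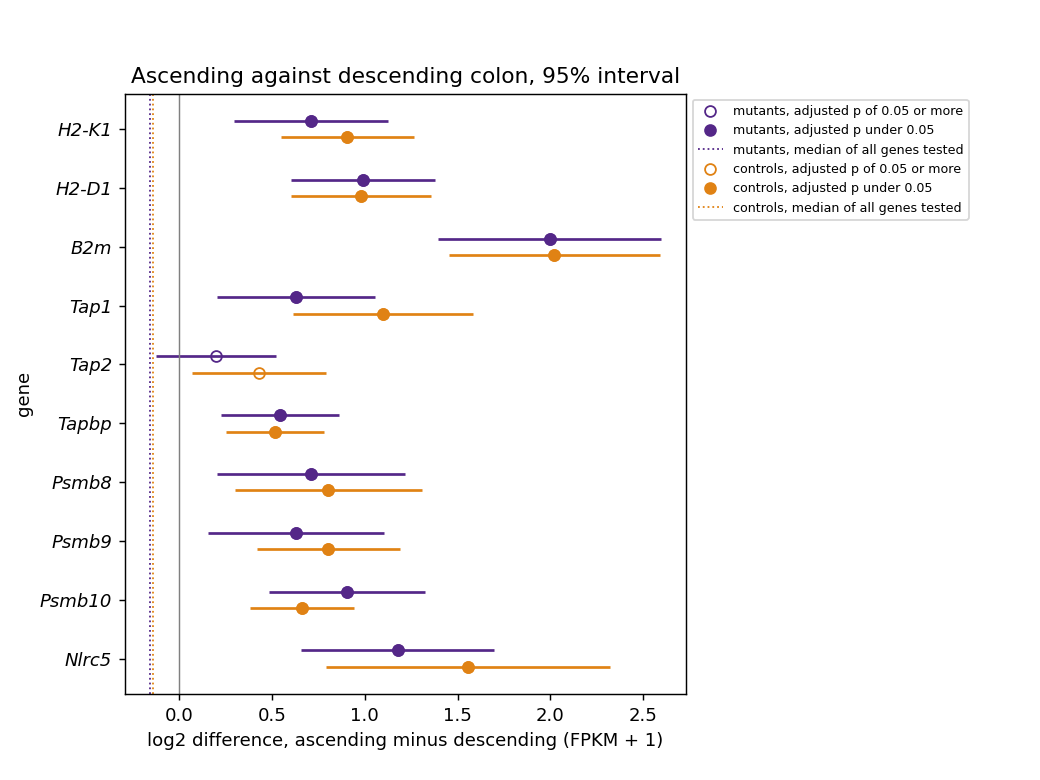
Log2 difference of ascending minus descending colon for each of the 10 genes, in mutants and in controls (points, with 95% intervals from limma). All 10 points lie above 0 in each genotype, B2m farthest at 2.0 and 2.02, and Tap2 nearest 0 at 0.20 and 0.43.

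More genes were lower than higher in the ascending colon as deposited: 1748 were called higher and 3620 lower in mutants, and 1598 higher and 3146 lower in controls. With median-of-ratios scaling these counts were 2325 and 2283 in mutants and 2141 and 1883 in controls, and the median difference of all genes moved to -0.03 and -0.01. With quantile normalization they were 2097 and 2282 in mutants and 1941 and 2262 in controls. The 10 genes did not turn with the scaling: 9 were called higher in mutants and 10 in controls under each of these settings.

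The regional difference was seen in each cage. Cage by cage, mutants of the ascending colon had higher means than those of the descending colon in all 3 cages for 9 of the 10 genes, as did 21% of all genes, and controls for 10 of 10, as did 18.4% of all genes. The median log2 difference of the 10 genes in cages A, B and C was 0.40, 0.55 and 1.26 in mutants and 0.50, 0.83 and 1.20 in controls. B2m differed by 1.35, 1.60 and 2.91 in mutants of cages A, B and C and by 1.25, 2.15 and 2.61 in controls. In both genotypes cage C had the largest value and cage A the smallest. Nlrc5 differed by 1.18, 1.20 and 1.16 in mutants of the 3 cages, and by 0.15, 2.02 and 2.27 in controls. A limma F test of whether the regional difference depends on cage called 0 of the 10 genes at an adjusted p under 0.05 (0.113% of 12353 genes were called, and 8.29% had an unadjusted p under 0.05, as did H2-K1, H2-D1, B2m and Tapbp, 4 of the 10). The smallest adjusted p-values were 0.208 for H2-D1 and 0.26 for B2m, with differences between cages C and A of 1.03 ± 0.25 and 1.48 ± 0.40 (SE). Without cage C, 4 of the 10 genes were called in mutants and 5 in controls, and the median in mutants was 0.37. Without cage B, Nlrc5 and Tapbp were not called in controls (adjusted p = 0.111 and 0.0593).

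**Figure D3:**
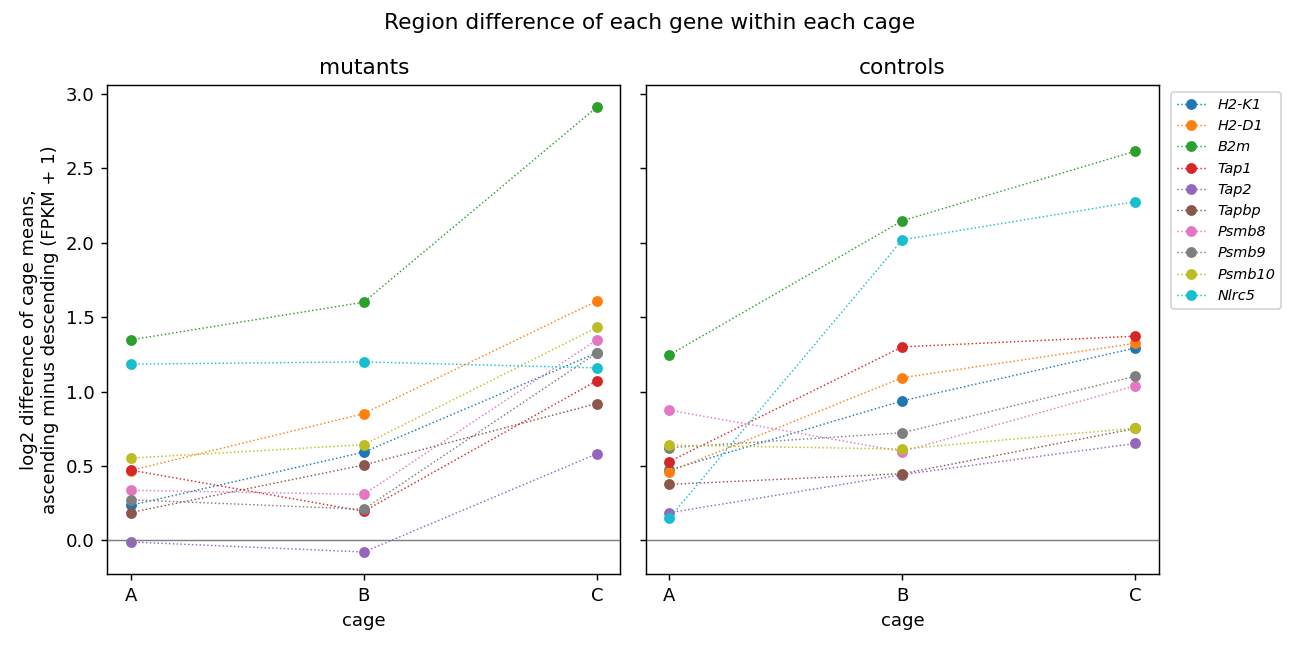
Log2 difference of ascending minus descending colon within each cage, for each of the 10 genes in mutants and in controls. The B2m differences in cage C, 2.91 in mutants and 2.61 in controls, are above those of cage A, 1.35 and 1.25.

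Levels between cages differed most in the descending colon. H2-D1 in descending mutants was 218 to 267 FPKM in cage A, 164 to 215 in cage B and 84.2 to 134 in cage C, and in descending controls 237 to 251 in cage A, 159 to 274 in cage B and 111 to 143 in cage C. All 5 cage C libraries were below all libraries of cages A and B. It was the 1 gene of the 10 called in an F test over cages in the descending colon (adjusted p = 0.0419), where 0.597% of all genes were called, and its log2 difference of cage A minus cage C was 1.02 ± 0.18. That call was lost with quantile normalization (adjusted p = 0.0639) and on leaving out descending control A1, C1 or C2, or descending mutant A1, A3, B1, B2, C1, C2 or C3 (adjusted p = 0.0541 to 0.126). H2-K1 and B2m had differences of cage A minus cage C of 0.93 ± 0.22 and 1.32 ± 0.32, with adjusted p-values of 0.108 and 0.123 over cages. In the ascending colon 0 of the 10 genes were called over cages, against 1.32% of all genes, and the smallest of their adjusted p-values was 0.504, for Tap2. In the descending colon mutant C1 was lowest of its group in 9 of the 10 genes, and mutant A1 was highest in 7. Descending control C2 was lowest in 6 and descending control B2 highest in 6. Ascending control A1 was lowest in 7 and ascending control B1 highest in 7. The shares of all genes with these extremes were not computed.

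Genes around the pathway were counted in the same comparison of regions. Over all genes 14.3% were called higher in mutants and 12.8% in controls, and 29.7% and 25.1% lower. Of the class I-like and nonclassical class I genes that were kept by the filter on low values, 9 of 15 were called higher and 1 lower in the ascending colon in each genotype, with medians of 0.68 in mutants and 0.67 in controls. H2-T3, which encodes the thymus leukaemia antigen of gut epithelium and is a ligand of CD8 alpha, averaged 37.1 ± 10.7 FPKM in ascending mutants and 3.40 ± 3.64 in descending mutants, and 37.6 ± 10.7 in ascending controls and 3.22 ± 2.95 in descending controls. Its log2 difference was 3.63 ± 0.33 in mutants and 3.62 ± 0.41 in controls (adjusted p = 1.79e-07 and 2.04e-05). H2-Q2 differed by 1.91 ± 0.14 and 1.82 ± 0.15, and H2-T23, the Qa-1 chain that presents to natural killer receptors, by 1.21 ± 0.15 and 1.14 ± 0.14. Cd1d1, which presents lipids, went the other way, at -0.54 ± 0.14 and -0.53 ± 0.15 (adjusted p = 0.00441 and 0.0151).

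Of the interferon-gamma signalling genes, 3 of 9 kept were called higher and 2 lower in each genotype. All genes had 14.3% called higher and 29.7% lower in mutants, and 12.8% and 25.1% in controls. Socs1, an inhibitor that the pathway induces, differed by 0.82 ± 0.22 in mutants and 1.24 ± 0.26 in controls, and Irf9 by 0.79 ± 0.15 and 0.95 ± 0.25. Irf2, a factor of the same family as Irf1, was lower, by -0.60 ± 0.17 and -0.68 ± 0.13. The receptor chain Ifngr1 was also lower, by -0.29 ± 0.11 and -0.48 ± 0.14. Irf1 itself was called in controls (0.46 ± 0.15, adjusted p = 0.0282) and not in mutants (0.36 ± 0.16, adjusted p = 0.0685), and the test of region by genotype did not call it. Of the 8 DNA-binding partners of Nlrc5, 5 were called lower in mutants and 3 in controls, and 0 higher, where 29.7% of all genes in mutants and 25.1% in controls were called lower. Among them Nfya of NF-Y differed by -0.60 ± 0.10 and -0.43 ± 0.11, Atf1 by -0.40 ± 0.11 and -0.44 ± 0.10, and Rfxank of the RFX complex by -0.52 ± 0.13 and -0.45 ± 0.13.

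Other genes of peptide supply were mostly not called. Of 12 genes of peptide trimming, chaperones and loading, 2 were called higher and 1 lower in mutants, and 2 higher and 3 lower in controls. The shares of all genes were 14.3% higher and 29.7% lower in mutants, and 12.8% higher and 25.1% lower in controls. Blmh, a cytosolic peptidase, differed by 0.73 ± 0.15 in mutants and 0.69 ± 0.10 in controls, and Tapbpl, a relative of tapasin, by 0.56 ± 0.14 and 0.51 ± 0.11. The aminopeptidase Npepps was lower, by -0.46 ± 0.08 and -0.30 ± 0.07. The interferon-induced proteasome activator subunits Psme1 and Psme2 were called in mutants (0.37 ± 0.15 and 0.44 ± 0.16, adjusted p = 0.04998 and 0.0306) and not in controls (0.26 ± 0.12 and 0.27 ± 0.13, adjusted p = 0.11 and 0.128). None of the 3 constitutive catalytic subunits Psmb5, Psmb6 and Psmb7 was called in either genotype, and of 12 other core proteasome subunits the assembly factor Pomp alone was called, in mutants (0.39 ± 0.15, adjusted p = 0.0399). MHC class II genes, which present to CD4 T cells, had 0 of 7 called in each genotype, with medians of 0.19 in mutants and 0.45 in controls. Their summed level varied widely between libraries, from 77.0 to 1848 FPKM in ascending mutants, 120 to 2222 in ascending controls, 36.0 to 1530 in descending mutants and 87.4 to 2391 in descending controls.

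The summed level of T and NK cell markers was higher in the ascending colon. It was 10.1 to 41.8 FPKM in ascending mutants (median 22.3) and 1.31 to 3.18 in descending mutants (median 2.51), and 15.9 to 64.5 in ascending controls (median 41.6) and 1.38 to 4.89 in descending controls (median 2.46). The ranges of the regions did not overlap, 11 of the 13 markers were in the table, and none of the 11 was at 0 in all libraries of a group. The T cell co-receptor Cd8a differed by 1.49 ± 0.15 in mutants and 2.0 ± 0.16 in controls, and granzyme A (Gzma) by 2.77 ± 0.26 and 3.38 ± 0.32. Of 10 epithelial markers 5 were called higher and 1 lower in each genotype. Of all genes 14.3% in mutants and 12.8% in controls were called higher. In mutants 7 of the 10 markers lay above 0 and 3 below (median 0.29), and in controls 5 and 5 (median 0.17). Their summed level, in which abundant markers weigh most, was 14802 to 22708 FPKM in ascending mutants and 3940.4 to 7545 in descending mutants. In controls it was 9086 to 19081 in the ascending colon and 4897 to 8386 in the descending colon. All 6 smooth muscle markers lay below 0 in both genotypes. Their median log2 difference was -2.01 in mutants, where 6 were called lower, and -1.55 in controls, where 0 were called and 3 had an unadjusted p under 0.05. The part of these markers in the regional difference of the class I genes was not tested.

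Mutants and controls were compared within each region with cage as a covariate, which asks whether loss of the O-glycan enzymes goes with a change of the class I genes. In the ascending colon limma called 0 of the 10 genes, and 0% of all 12178 genes were called (1396 genes, 11.5%, had an unadjusted p under 0.05, among the 10 Nlrc5 alone). Of the 10 genes 9 lay below 0, as did 61.3% of all genes, and their median was -0.28 against -0.05 over all genes. Without ascending mutant B1 that median was -0.10, with Psmb8 at -0.055, Psmb9 at -0.073, Tap1 at -0.28 and Tap2 at -0.13. Nlrc5 was 1.4 to 7.12 FPKM in mutants (median 3.055) and 3.71 to 9.59 in controls (median 5.92). The ranges overlapped, and the log2 difference was -0.62 ± 0.23 (SE; 95% interval -1.11 to -0.13; limma adjusted p = 0.348, and 0.0868 to 0.999 over the alternative settings). Ascending controls B1 and C1, at the top of the control range, are among the 4 libraries set apart. Without those 4 the difference was -0.45 (adjusted p = 0.5) and without ascending control C1 alone -0.50 (adjusted p = 0.642), and 0 of the 10 genes then had an unadjusted p under 0.05. Tap1 was 6.98 to 21.0 FPKM in mutants and 11.2 to 27.3 in controls, a difference of -0.45 (-0.93 to 0.02). B2m was 838 to 1449 in mutants and 953 to 2243 in controls, a difference of -0.37 (-0.76 to 0.03). Both ranges overlapped, and both intervals include 0. H2-K1 differed by -0.29 (-0.59 to 0.02), Psmb9 by -0.30 (-0.75 to 0.15), Psmb8 by -0.27 (-0.72 to 0.17) and Tap2 by -0.22 (-0.55 to 0.10). Tapbp and H2-D1 were nearest 0 among those below it, at -0.10 (-0.35 to 0.15) and -0.09 (-0.39 to 0.21), and Psmb10 lay above it, at 0.05 (-0.34 to 0.44).

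Within cages the ascending genotype difference was uneven. The median of the 10 genes was -0.21 in cage A, -0.53 in cage B and 0.03 in cage C. The ascending mutants of cage A also had the lowest estimated depth, and its part in their values was not tested. In cage A, with 3 mutants and 2 controls, no gene of the 10 had its mutant range wholly below its control range, whereas 19.1% of all genes had. In cage B, with 2 mutants and 3 controls, H2-K1, H2-D1, B2m, Tap1 and Psmb9 had mutant ranges wholly below control ranges, as did 4.99% of all genes. In cage C, with 3 mutants and 2 controls, Nlrc5 alone of the 10 had (a difference of -1.06), as did 30.8% of all genes. Of the 10 genes 4 had lower mutant means in all 3 cages, as did 17.2% of all genes. Over the whole region 0 of the 10 had mutant ranges wholly below control ranges, against 0.0821% of all genes. A limma test of genotype by cage called 0 of the 10 in each region, against 0% of all genes in the ascending and 0.00818% in the descending colon. Leaving out cage B gave 652 genes called over all, and array quality weights 746, with 0 of the 10 among them in each case.

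No marker of other cells was called between genotypes in the ascending colon, where 0% of all genes were called and 61.3% lay below 0. An unadjusted limma p under 0.05 was found for 11.5% of all genes. It was found for 5 of 7 MHC class II genes and for 5 of 7 markers each of macrophages and dendritic cells and of fibroblasts. For T and NK cells it was 3 of 10, smooth muscle 1 of 6, B and plasma cells 0 of 3 and epithelium 3 of 10. MHC class II genes lay below 0 in 7 of 7 cases (median -0.71), T and NK cell markers in 9 of 10 (-0.47), macrophage and dendritic cell markers in 7 of 7 (-0.67), fibroblast markers in 7 of 7 (-0.95), smooth muscle markers in 6 of 6 (-1.13) and B and plasma cell markers in 2 of 3 (-0.19). Epithelial markers lay above 0 in 10 of 10 (median 0.22), with a summed level of 14802 to 22708 FPKM in mutants and 9086 to 19081 in controls. The T and NK cell sum was 10.1 to 41.8 FPKM in mutants and 15.9 to 64.5 in controls. Their part in the values of the class I genes was not tested.

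In the descending colon limma called 0 of the 10 genes and 0% of all 12219 genes (267 genes, 2.19%, had an unadjusted p under 0.05, and 0 of the 10). Of the 10 genes 8 lay below 0, as did 62.2% of all genes, with a median of -0.10. The largest were Nlrc5 at -0.32 (95% interval -1.08 to 0.44) and B2m at -0.32 (-0.89 to 0.25), and the others ran from -0.15 for Psmb10 to 0.04 for Tap2. B2m was 76.4 to 474 FPKM in descending mutants and 154 to 588 in descending controls, with overlapping ranges. The test of whether the genotype difference depends on region called 0 of the 10 and 0% of 12353 genes (198 genes, 1.6%, at an unadjusted p under 0.05). Of the 10, 7 lay below 0, as did 52.5% of all genes. Its largest values were Tap1 at -0.49 (-1.12 to 0.15) and Nlrc5 at -0.30 (-1.22 to 0.62).

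**Figure D4:**
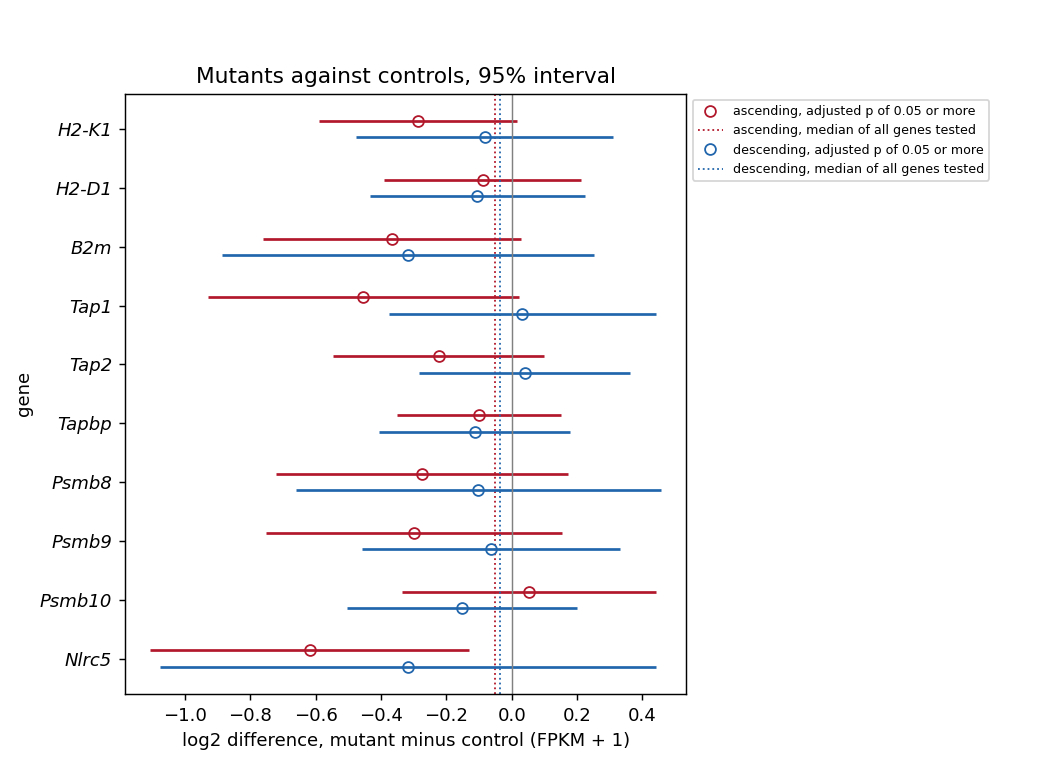
Log2 difference of mutants minus controls for each of the 10 genes, in the ascending and in the descending colon (points, with 95% intervals from limma). Nlrc5 in the ascending colon, at -0.62, is the 1 gene whose interval does not include 0, and its adjusted p was 0.348.

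Each immunoproteasome subunit takes the place of a constitutive one, so the log2 ratio within a library was compared, with 12 exact two-sided permutation tests of libraries within cages and Benjamini-Hochberg adjustment over the 12. In the ascending colon the ratio of Psmb9 to Psmb6 was -2.93 to -1.72 in mutants (median -2.09) and -1.82 to -1.01 in controls (median -1.71). Ascending mutant A1 reached into the control range, and the other 7 mutants were below all 7 controls. The means were -2.15 ± 0.38 in mutants and -1.51 ± 0.34 in controls (SD), a difference of -0.65 (exact p = 0.006, adjusted p = 0.018). On leaving out each library in turn the difference was -0.74 to -0.57. Without the 4 libraries set apart by posterior markers it was -0.61 and no longer called (exact test, adjusted p = 0.058). Neither gene alone was called: Psmb9 differed by -0.30 and Psmb6 by 0.35 ± 0.17 (limma adjusted p = 0.437). Psmb6 averaged 36.0 ± 7.57 FPKM in mutants and 28.1 ± 6.99 in controls. The other ratios of the ascending colon were not called, with differences of -0.28 for Psmb8 to Psmb5 (exact p = 0.169, adjusted p = 0.225) and -0.27 for Psmb10 to Psmb7 (exact p = 0.057, adjusted p = 0.0977). In the descending colon the 3 differences between mutants and controls were -0.40, -0.14 and -0.17 (exact tests, adjusted p = 0.26, 0.575 and 0.405). Epithelial marker sums differed between the genotypes as given above, and their part in the ratio was not tested.

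Between regions, 5 of the 6 ratio tests were called. In mutants the ratios differed by 0.76 for Psmb8 to Psmb5, 0.57 for Psmb9 to Psmb6 and 0.67 for Psmb10 to Psmb7, all higher in the ascending colon (exact permutation, adjusted p = 0.024, 0.035 and 0.0167). In controls they differed by 0.58, 1.07 and 0.75 (adjusted p = 0.154, 0.0167 and 0.0167). The Psmb9 to Psmb6 ratio was -1.82 to -1.01 in ascending controls and -3.13 to -1.92 in descending controls, without overlap. The Psmb9 to Psmb6 call in mutants was lost on leaving out descending mutant A3, B1, C2 or C3 or ascending mutant A1, A3, B2, C2 or C3 (exact tests, adjusted p = 0.0514 to 0.0733), and the Psmb8 to Psmb5 call in mutants without descending mutant A3. Without the 4 libraries both calls were lost (differences of 0.53 and 0.68; exact tests, adjusted p = 0.06 and 0.058), and 3 of the 12 ratio tests were called in place of 6.

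**Figure D5:**
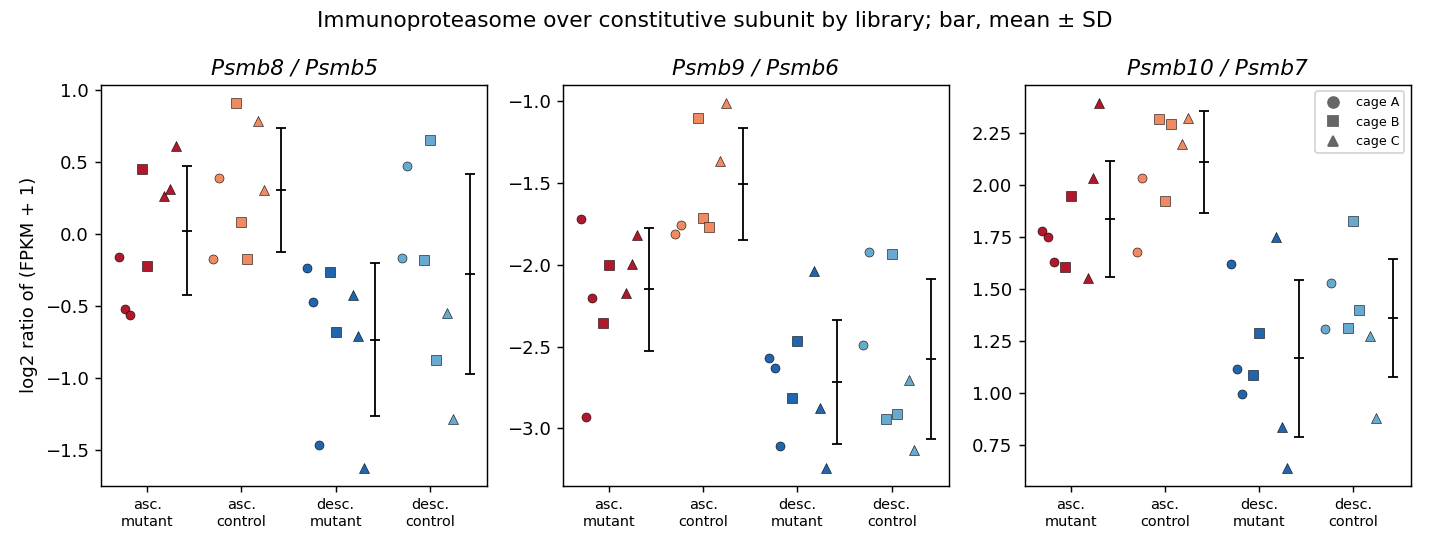
Log2 ratio of each immunoproteasome subunit to its constitutive counterpart in each library (points), by region and genotype, with group means. Ascending mutants lie at -2.93 to -1.72 for Psmb9 to Psmb6, below most ascending controls at -1.82 to -1.01.

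The relation of Nlrc5 with each of its 9 partners was computed over the 15 libraries of each region, 18 relations in all, by Pearson's r and Spearman's rho with 100000 permutations. None of the 18 passed after adjustment. In the ascending colon r ran from -0.10 for Psmb10 to 0.68 for Tap1 (permutation p = 0.00563, adjusted p = 0.0992; rho 0.67, adjusted p = 0.144), with 0.64 for H2-K1. Without the 2 libraries farthest from the median of Nlrc5, ascending mutant A2 and ascending control B1, r with Tap1 was 0.49 (adjusted p = 0.697). With cage and genotype removed it was 0.67. In the descending colon r ran from 0.01 for Tap2 to 0.52 for Tap1 (permutation, adjusted p = 0.165). With cage and genotype removed it ran there from -0.49 for H2-K1 to 0.51 for Tap1. It was then also below 0 for H2-D1, B2m, Tap2 and Tapbp, and above 0 for Psmb8, Psmb9 and Psmb10. Without descending controls A2 and B2, farthest from the median of Nlrc5, it ran from -0.15 for Psmb10 to 0.46 for Tap1. The count of relations called depended on single libraries: 5 passed without ascending mutant B1 and 4 without ascending mutant C3. None passed without the 4 libraries set apart, where r with Tap1 was 0.64 in each region (permutation, adjusted p = 0.168).

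The genes whose levels followed the 10 most closely were ranked among 11109 others with a mean of at least 1 FPKM, by the smaller of the r values with the mean of the 10 scaled genes over the 15 libraries of each region. Ly6a, a GPI-anchored surface antigen, had an r of 0.86 in the ascending and 0.90 in the descending colon. Lgals9, the lectin galectin-9, had 0.85 and 0.88, and Lgals3bp, which binds galectin-3, 0.82 and 0.90. Igtp, an interferon-induced GTPase, had 0.86 and 0.82, and Dtx3l, a ubiquitin ligase, 0.79 and 0.83. These r values describe the libraries, which share cages and genotypes, and were taken within regions, apart from the regional difference. By mean FPKM Ly6a was lower in the ascending colon (81.5) than in the descending colon (125.9), unlike the 10 genes. The others were higher in the ascending colon: Lgals9 (114.8 and 27.5), Lgals3bp (179.5 and 51.9), Igtp (23.3 and 6.79) and Dtx3l (33.5 and 19.6).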

How the data were processed

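RNA of 30 pieces of mouse colon was depleted of ribosomal RNA with Kapa Hyper Prep kits with RiboErase and sequenced as 50-nt reads, per the labels' protocols. The authors deposited 1 table of FPKM values with 2 decimals. The submitters' processing notes name bcl2fastq 2.17, STAR, DESeq2 and the GRCm38 (mm10) genome; the versions of STAR and DESeq2, the gene counter, annotation, gene lengths and filter are not known here. The table holds no read counts, so depth was estimated from the spacing of low FPKM values (1.46 to 9.12 M reads) and entered no test. Library pairs correlated at 0.842 to 0.986 (log2 scale), and no columns were identical.

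Groups follow the labels. From the FPKM, log2(FPKM + 1) was computed, genes averaging under 0.5 FPKM in the libraries fitted were left out (none of the 10), and limma 3.58.1 in R 4.3.3 was fitted across all genes (eBayes with trend, Benjamini-Hochberg threshold 0.05, two-sided, cage as covariate). Genotype was tested within each region and as an interaction with region over all libraries, region within each genotype, and cages by moderated F tests. Ratios of subunits were tested by exact permutation within cages and correlations by 100000 permutations (Python 3.11.15, numpy 2.4.6, scipy 1.17.1, pandas 2.3.3). The limma comparisons of genotype and region and the exact permutation were tested on simulated data. The 10 genes and all lists were chosen with earlier results of these data known, and p-values over all genes do not account for that choice. All 10 genes were to be named in every comparison; of each list up to 4 genes past the threshold by smallest adjusted p, or up to 2 by smallest p where none passed; and the 5 genes most like the 10. 1 gene of the interferon-gamma list is not reported here and was left out of its counts. Genes named beyond that rule were chosen after their values were seen. Alternatives used 0.1 as pseudocount, a minimum mean of 2 FPKM or none, median-of-ratios and quantile scaling, array quality weights, no cage covariate, 1 fit of all 30 libraries, a replicate block, and leaving out each cage or library. The test of region by cage and the fits, ratios and correlations without 4 libraries were added after seeing the data.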

Additional observations from a re-analysis of the deposited data

How the results depend on the processing

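Genes of the 10 called between regions numbered 7 to 9 in mutants and 9 to 10 in controls on leaving out each library, and 7 in mutants and 8 in controls without the 4 libraries with deviating posterior markers. Without cage C they numbered 4 in mutants, with a median difference of 0.37, and 5 in controls, and fewer libraries entered that fit. Over cages of the descending colon 0 were called with quantile normalization, 2 with array quality weights and 0 to 1 on leaving out each library; the cause was not tested. The weights were computed by an algorithm that stopped short of its convergence tolerance in at least 1 fit. Ratio tests called numbered 3 of 12 without the 4 libraries, in place of 6. Relations of Nlrc5 that passed numbered 0 to 5 on leaving out each library. In the genotype comparisons and the interaction 0 of the 10 genes were called under every alternative.

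Signs turned for some differences and correlations, none of them called before or after. With quantile normalization Psmb10 was -0.020 in the ascending genotype comparison, Psmb9 0.0085 in the descending one, and H2-D1 -0.027, B2m 0.030 and Tapbp -0.041 in the interaction. With array quality weights H2-K1 was 0.026 and Tap1 -0.048 in the descending comparison, and Psmb8 0.023 and Psmb9 0.045 in the interaction. Without a cage covariate Tap1 was -0.011 in the descending comparison. Without cage A Psmb10 was -0.018 (ascending), Nlrc5 0.20 (descending) and Psmb8 0.0098 (interaction). Without cage B H2-D1 was 0.066 (ascending), Tap2 -0.0080, Psmb8 0.060 and Psmb9 0.031 (descending), and B2m 0.20 and Tapbp -0.011 (interaction). Without cage C Psmb10 was -0.062 (ascending), H2-D1 -0.12, Tapbp -0.065, Psmb10 -0.029 and Nlrc5 0.11 (interaction), and Tap2 -0.037 between regions in mutants. Without the 4 libraries Psmb10 was -0.078 (ascending), Tap2 -0.032 and Nlrc5 0.0022 (descending), and B2m 0.0096 (interaction).

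On leaving out each library the descending genotype difference ran from -0.14 to 0.0054 for H2-K1, -0.072 to 0.17 for Tap1, -0.047 to 0.12 for Tap2, -0.26 to 0.045 for Psmb8, -0.18 to 0.054 for Psmb9 and -0.54 to 0.0022 for Nlrc5, and the ascending one from -0.035 to 0.23 for Psmb10. The interaction ran from -0.056 to 0.072 for H2-D1, -0.20 to 0.067 for B2m, -0.049 to 0.084 for Tapbp and -0.32 to 0.048 for Psmb8. The correlation with Nlrc5 ran from -0.21 to 0.015 for Psmb10 in the ascending colon (0.11 without the 4 libraries), and in the descending colon from -0.10 to 0.29 for Tap2, -0.016 to 0.23 for Tapbp, -0.084 to 0.33 for Psmb8, -0.0083 to 0.37 for Psmb9 and -0.058 to 0.32 for Psmb10.

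Shared replicate numbers were not taken as pairs, since the labels do not say whether libraries of both regions came from the same animals. Deviations of same-numbered libraries correlated above 0.1 in 4 of 15 pairs between regions (3 of them the mutants of cage C). Between genotypes they did in 3 of 6 in each region. Of 15 ascending libraries 4 correlated best with their own number, and a shared animal in cage C was not tested. Where a cage held 2 libraries of a genotype, their deviations mirrored each other and both pairs between regions gave the same value. These correlations therefore cannot decide whether the numbers mark pairs. With the replicate block 9 genes were called between regions in each genotype and 0 between genotypes, and Tap1 was -0.048 and Tap2 -0.0016 in the descending genotype comparison. Depth was only estimated and entered no test, so what it limits was not measured. Nlrc5, the gene of lowest level, had a median of 0.77 FPKM in descending mutants.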
